A study of Mus musculus with 2 samples.

Results

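The nuclear genes for the respiratory chain and ATP synthase were compared between ovaries cultured with tachykinin receptor (TKR) agonists and ovaries cultured with TKR antagonists, a comparison made to find genes that follow tachykinin signalling. A gene was included by its symbol, if it began with Ndufa, Ndufb, Ndufc, Ndufs, Ndufv, Uqcr, Cox4i, Cox5, Cox6, Cox7, Cox8 or Atp5, or was Sdha, Sdhb, Sdhc, Sdhd or Cyc1. The rule found 94 of the 20658 genes with a symbol on the array, and these were covered by 125 of its 55674 probes. By complex there were 44 genes for complex I, 4 for complex II, 9 for complex III, 20 for complex IV and 17 for complex V. The 44 genes of complex I include 8 assembly factors named Ndufaf, which help to build the complex and are not part of it. Ndufa4 and its paralogue Ndufa4l2 carry complex I names but were counted with complex IV, where the NDUFA4 protein is found.

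Ovaries of 2-week-old mice were cut lengthwise and the pieces were kept in organ culture for 3 days with ligands at 1 μM. The agonists were [Sar9, Met(O2)11]-SP for TACR1, GR-64349 for TACR2 and the succinylated SP fragment known as senktide for TACR3, and the antagonists were L-703606 for TACR1, GR-94800 for TACR2 and SB218795 for TACR3. RNA of each group was hybridised to 1 single-colour oligonucleotide array, so that the spread between ovaries is unknown and no test was made. Whether the 3 ligands of a group were given together is not stated unambiguously. The strain of the cultured ovaries and the number of ovaries behind each RNA are not stated, and no array of untreated ovaries was analysed here.

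The respiratory chain sits in the inner mitochondrial membrane. Complex I takes electrons from NADH and complex II takes them from succinate, complex III passes them from ubiquinol to cytochrome c, and complex IV hands them to oxygen. Complexes I, III and IV pump protons, and complex V (ATP synthase) lets the protons back to make ATP. All subunits of complex II are nuclear genes, whereas the other complexes also hold subunits made from mitochondrial DNA. In growing follicles, oocytes are known to rely on pyruvate supplied by the somatic cells around them, which they oxidise through this chain.

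Many of these genes are known to be served by the transcription factors NRF1, GABP, YY1 and the estrogen-related receptors (ERR). Their binding letters were searched on both strands of RefSeq promoters (GRCm38.p6, 250 bases before to 50 bases after the transcription start), of which 81 belonged to 76 of the 94 genes. The NRF1 letters, a string of 10 bases that reads the same on both strands and is seen in capitals in the Ndufa11 promoter below, occurred in 8.64% of these promoters and in 0.971% of all 32851 promoters. The GABP letters CCGGAAG occurred in 23.5% against 8.86%, the YY1 letters AAGATGGC in 13.6% against 2.75%, and the ERR letters TCAAGGTCA in 2.47% against 0.423%. None of these letter strings contains another. At least 1 of them was held by 42.0% of the respiratory chain promoters and by 12.3% of all promoters. The respiratory chain promoters also had more G and C, with a median of 58.3% against 52.7%, and more CpG pairs, with a median of 20 against 7, and the part of this composition in the motif counts was not tested. A match to letters is a description and not a site of binding.

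One promoter from each complex is shown, to let the motifs be seen in their surroundings. Each run is the 200 bases before the start on the strand of the gene, 5′ to 3′, and capitals mark a motif on either strand. Ndufa11, a subunit of complex I, lies at chr17:56717562-56717761 on the plus strand and has the NRF1 letters 60 bases before its start. Sdhd, which anchors complex II in the membrane, lies at chr9:50603850-50604049 on the minus strand and has the GABP letters 46 bases before. Uqcr11, a small subunit of complex III, lies at chr10:80406822-80407021 on the minus strand and has the GABP letters 66 bases before. Cox6a1, the widely expressed form of a complex IV subunit, lies at chr5:115348959-115349158 on the minus strand and has the NRF1 letters 162 bases and the GABP letters 16 bases before. Atp5j, a stalk subunit of complex V, lies at chr16:84834977-84835176 on the minus strand and has the YY1 letters 88 bases and the GABP letters 61 bases before. A second promoter of Atp5j, at chr16:84835626-84835825, held none of the letter strings and is not shown.
Ndufa11: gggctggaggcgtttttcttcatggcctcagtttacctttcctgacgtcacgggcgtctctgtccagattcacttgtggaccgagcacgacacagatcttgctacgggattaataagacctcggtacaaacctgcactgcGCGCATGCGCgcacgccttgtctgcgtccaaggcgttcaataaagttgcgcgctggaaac
Sdhd: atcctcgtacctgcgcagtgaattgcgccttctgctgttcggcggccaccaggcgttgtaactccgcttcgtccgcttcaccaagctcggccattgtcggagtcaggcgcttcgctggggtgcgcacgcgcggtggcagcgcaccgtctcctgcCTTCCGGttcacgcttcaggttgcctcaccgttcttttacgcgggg
Uqcr11: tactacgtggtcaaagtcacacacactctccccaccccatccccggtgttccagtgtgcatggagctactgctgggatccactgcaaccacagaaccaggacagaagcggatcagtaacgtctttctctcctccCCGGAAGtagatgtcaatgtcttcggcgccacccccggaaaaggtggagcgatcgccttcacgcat
Cox6a1: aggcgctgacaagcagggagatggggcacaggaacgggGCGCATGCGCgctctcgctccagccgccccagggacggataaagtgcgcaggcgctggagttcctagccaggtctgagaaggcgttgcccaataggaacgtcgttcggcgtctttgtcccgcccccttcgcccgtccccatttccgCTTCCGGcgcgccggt
Atp5j: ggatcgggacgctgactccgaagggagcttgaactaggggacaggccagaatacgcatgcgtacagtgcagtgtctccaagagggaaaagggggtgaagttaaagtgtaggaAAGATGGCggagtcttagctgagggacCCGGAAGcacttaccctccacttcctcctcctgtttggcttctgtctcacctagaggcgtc

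A pair of promoters is shown for genes that differed on the arrays. Cox7a1 and Cox7a2 encode alternative forms of the same complex IV subunit, the first known from heart and skeletal muscle and the other from most tissues. Cox7a1 lies at chr7:30183971-30184170 on the plus strand and its 300-base promoter held 7 CpG pairs. Cox7a2 lies at chr9:79759854-79760053 on the minus strand and held 20. Neither holds any of the 4 letter strings, and no base is in capitals.
Cox7a1: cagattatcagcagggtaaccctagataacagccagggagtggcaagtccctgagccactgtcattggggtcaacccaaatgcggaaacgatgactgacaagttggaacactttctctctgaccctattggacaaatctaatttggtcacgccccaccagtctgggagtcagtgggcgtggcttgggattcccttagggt
Cox7a2: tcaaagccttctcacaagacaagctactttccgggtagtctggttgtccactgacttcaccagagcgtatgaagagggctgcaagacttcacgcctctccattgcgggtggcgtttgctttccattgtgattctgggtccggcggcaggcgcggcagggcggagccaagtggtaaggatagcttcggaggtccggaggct

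Signals were put on the log2 scale and centred on the 75th percentile of each array, at 672 signal units (agonists) and 569 (antagonists). A log2 ratio is agonists minus antagonists. The median log2 ratio of the 15258 genes measured well above background on both arrays was -0.10, and with no scaling between the arrays it was 0.15. Because this median moves with the scaling, each gene is given by its relative log2 ratio, which is its log2 ratio minus the median of all genes and does not move with a scaling factor of an array. The SD of the relative log2 ratio over all genes was 0.48. For technical error, the image analysis software gave an error of 0.20 for the log2 ratio of the median gene of the chain. Probes printed 10 times had a median SD of 0.07 between their spots. The software error hardly differed between genes of the chain. It ran up to 0.21 and was below 0.20 only for Uqcrc2, at 0.065, whose probe had 10 spots. It was thus a nearly constant limit and not a spread measured for each gene. The software error and the SD between spots are errors of the measurement and leave out the variation among ovaries.

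Of the 94 genes, 92 were measured on both arrays and 2 on neither. The 2 were Cox7b2, at 6.48 signal units with agonists and 10.6 with antagonists, and Cox8c, at 18.8 and 19.8, both known as testis forms of complex IV subunits. Neither was well above background. The median relative log2 ratio of the 92 genes was -0.17, a level 0.889-fold that of the median gene, with the middle 50% of genes between -0.25 and -0.08. Of the 92 genes, 80 (87.0%) lay below the median of all genes, where by definition 50% of all genes do. The shift was small. The relative log2 ratios of 54 of the 92 genes were within the software error, and those of 14 were within the smaller spread between spots. With no scaling between arrays the median log2 ratio itself was -0.02 and with scaling on spike-in controls it was 0.01. In the main processing it was -0.27, with the authors' values -0.16, after loess correction -0.11 and with scaling on the array median -0.32. The genes were thus lower relative to other genes. Whether their own signals were about level or lower depended on the processing.

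A relative log2 ratio of 0.322 in either direction, which is a ratio of 5 to 4, was used to count genes. Past it, 13 of the 92 genes (14.1%) were lower with agonists, where 10.5% of all genes were. In the other direction 4 genes (4.35%) were higher, where 20.4% of all genes were. After quantile normalization these counts were 6 lower and 4 higher, and after loess correction 7 and 4. In the main processing none passed 2-fold in either direction, against 4.82% of all genes higher and 0.400% lower. Ndufa4l2, at 0.99, lay just short of it, and reached 1.04, past 2-fold, over the alternative settings. The share of lower genes was thus near that of all genes and the share of higher genes was smaller.

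**Figure D1:**
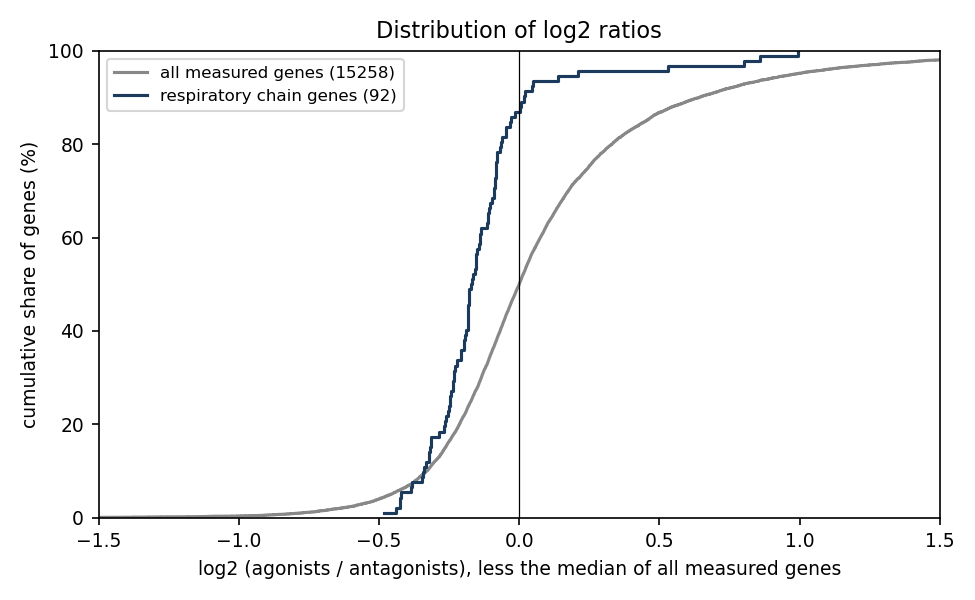
Cumulative share of genes in percent (y axis) by relative log2 ratio (agonists over antagonists, less the median of all measured genes, x axis) for the 92 respiratory chain genes (blue) and all 15258 genes measured on both arrays (grey), of which 312 lie outside the drawn range. The curve of the respiratory chain genes climbs steeply just below 0, around its median of -0.17, and reaches 87.0% at 0.

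The respiratory chain genes were among the brightest on the arrays, with 78 of the 92 in the top 25% of measured genes by mean signal, although signals of different probes do not give the relative levels of their genes. Signal level moved with the ratio, and its part in the result was not tested. Of 20 equal bins of signal, the brightest held 56 of the 92 genes. In that bin the respiratory chain genes had a median relative log2 ratio of -0.19 and 55 of the 56 lay below 0, whereas the 707 other genes had a median of -0.065 with 64.6% below 0. With a loess correction for the trend with signal level, the median of the 92 genes was -0.12.

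**Figure D2:**
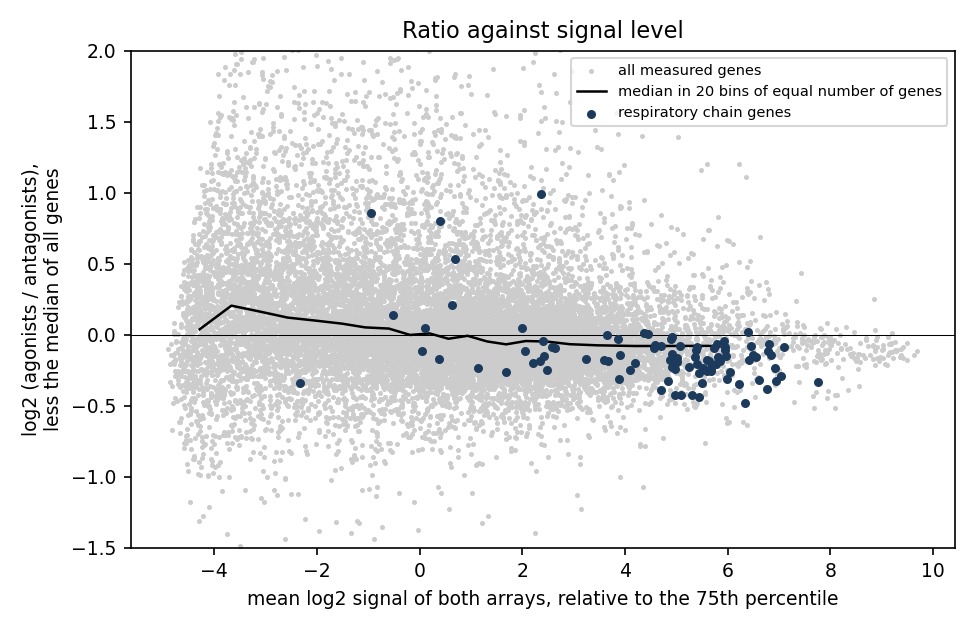
Relative log2 ratio (y axis) against the mean log2 signal of both arrays, scaled to the 75th percentile (x axis), with respiratory chain genes drawn over all measured genes and the median of all genes in 20 bins as a line; 142 genes outside the axis are not drawn. Most respiratory chain genes lie at the bright end, below the line.

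Complex I, the entry point for electrons from NADH, had 44 genes measured. Their relative log2 ratios ran from -0.44 to 0.86 with a median of -0.17, and 40 of the 44 lay below 0, whereas with no scaling the median log2 ratio was -0.02. All 7 genes of the conserved core that carries the flavin and the iron-sulfur clusters lay below 0, with a median of -0.18. Ndufs7, which holds the last cluster before ubiquinone, was the lowest of the core, with 16739 signal units with agonists and 18930 with antagonists, a relative log2 ratio of -0.32. Ndufv2, an iron-sulfur subunit of the NADH-oxidising arm, had 18831 and 20122 units, or -0.24. These differences are larger than the error of 0.20.

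The others of the core described here lay within that error. Ndufv1, which binds NADH and the flavin, had 18049 units with agonists and 18456 with antagonists, a relative log2 ratio of -0.18. Ndufs1, the largest core subunit and a carrier of iron-sulfur clusters, had 7825 and 8021 units, also -0.18. Ndufs3, a subunit of the arm that leads to ubiquinone, had 19839 and 20112 units, or -0.17. In signal units each of these was slightly lower on the agonist array. Ndufs8, another iron-sulfur subunit, had 3386 and 3158 units, or -0.045. Ndufs8 thus had more signal with agonists and yet lay below the median of all genes.

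The 29 accessory subunits of complex I, which surround the core, had a median of -0.17 with 27 below 0. Ndufa12 was the lowest gene of the complex, with 24327 units with agonists and 29816 with antagonists, a relative log2 ratio of -0.44. Ndufc1, with 22332 and 27100 units, was at -0.43. Ndufb10, with 17774 and 21550 units, and Ndufa3, with 19209 and 23248 units, were both at -0.42. Ndufa5 followed at -0.35, and its other probe differed from this by 0.04. These 5 accessory genes and Ndufs7 were the 6 of complex I (13.6%) lower by over 0.322, against 10.5% of all genes. All 10 Ndufb genes, which belong to the membrane arm, lay below 0 with a median of -0.15. Ndufa13, the brightest gene of the complex, had 57827 and 58292 units, or -0.16.

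Ndufab1 stood apart from the rest of complex I. It encodes the mitochondrial acyl carrier protein, which is a subunit of the complex and also works in fatty acid synthesis. Its signal was 453 units with agonists and 226 with antagonists, a log2 ratio of 0.76 and a relative log2 ratio of 0.86, and the range over the alternative settings was 0.70 to 0.88. It was measured by 1 probe in 1 spot, and its probe was the dimmest of the complex I genes. The RefSeq table lists a pseudogene named after Ndufab1, as it does for 10 of the 94 genes, and the part of such copies in its signal was not tested. The 8 assembly factors of complex I had a median of -0.14 with 6 below 0, between Ndufaf7, at 1895 and 2058 units or -0.27, and Ndufaf5, at 711 and 621 units or 0.05.

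**Figure D3:**
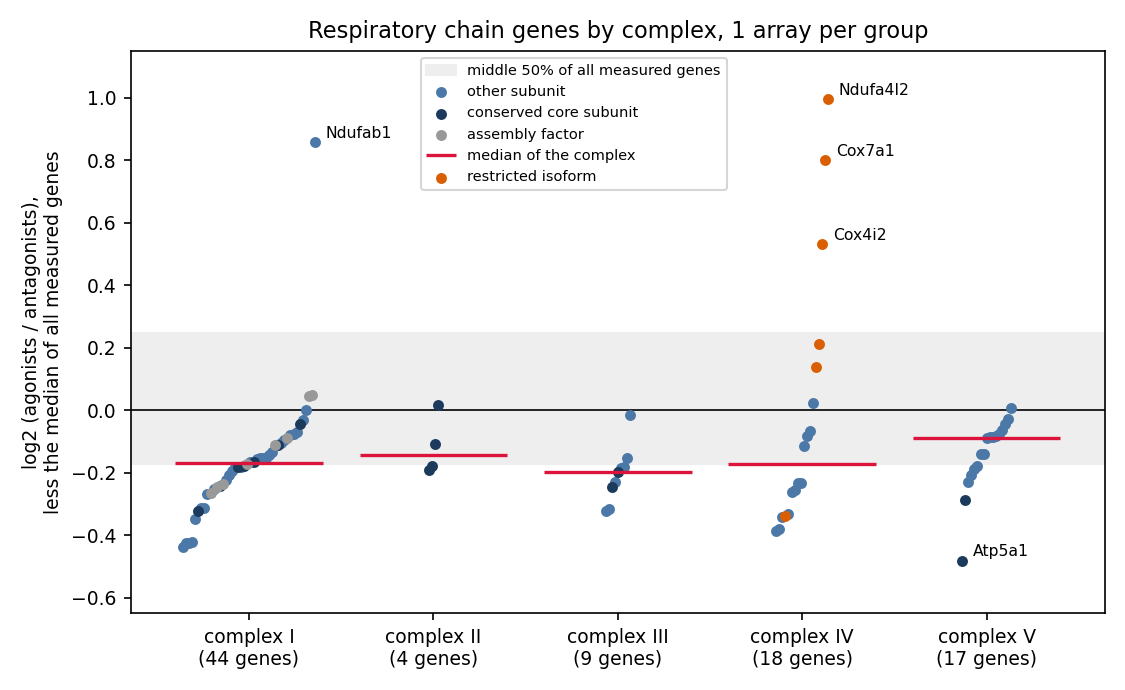
Relative log2 ratio (y axis) of each of the 92 measured genes by complex (x axis); each point is 1 gene on 1 array per group, red bars are medians of the complexes, colours separate core subunits, other subunits, assembly factors and restricted isoforms, and the grey band holds the middle 50% of all measured genes. The medians of all 5 complexes lie below 0, and the 4 labelled genes at the top are Ndufab1 of complex I and Ndufa4l2, Cox7a1 and Cox4i2 of complex IV.

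Complex II, which is also an enzyme of the tricarboxylic acid cycle, had all 4 genes within the software error, with a median of -0.14, and with no scaling the median log2 ratio was 0.0025. Sdha, the flavin subunit that oxidises succinate, had 13602 units with agonists and 12158 with antagonists, a relative log2 ratio of 0.016. Sdhb, the iron-sulfur subunit and the brightest of the complex, had 26199 and 25525 units, or -0.11. The membrane anchor Sdhc had 7380 and 7549 units, or -0.18. The other anchor, Sdhd, had 19044 and 19671 units, or -0.19. By these probes the catalytic subunits had slightly more signal and the anchors slightly less signal on the agonist array. None of these differences exceeded the error. Dimmer probes of Sdhb, with 5388 units with agonists and 5586 with antagonists, and of Sdhc, with 4591 and 4372, went the opposite way.

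All 9 genes of complex III lay below 0 in the main processing, with a median of -0.20 and a range from -0.32 to -0.01. With no scaling the median log2 ratio was -0.05. Uqcrh, the hinge subunit that helps cytochrome c to dock, was both the lowest and the brightest, with 71553 units with agonists and 80840 with antagonists, or -0.322. Uqcrq, a small subunit near the membrane, had 56675 and 63846 units, or -0.318. Cyc1, which carries the haem of cytochrome c1, had 10219 and 10948 units, or -0.25. Uqcrfs1, the Rieske iron-sulfur protein, had 11075 and 11483 units, or -0.20. Uqcrh lay just past the limit of 0.322 used for the counts and Uqcrq just short of it. By their other, dimmer probes Uqcrh was at -0.26, short of the limit, and Uqcrq at -0.37, past it.

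Uqcrc2, a core structural protein of complex III, was the 1 gene of the chain whose probe was printed 10 times, and so gives a direct view of the technical spread. Its spots ran from 18485 to 21629 units with agonists (19516 ± 847, SD over 10 spots) and from 16962 to 19596 with antagonists (17815 ± 778). The ranges of the spots overlapped. The log2 ratio over the 10 spots was -0.11 ± 0.04 (SD) and ran from -0.17 to -0.07, which put the gene at -0.014 relative to all genes. Over the alternative settings this relative value ran from -0.022 to 0.075, so its sign depended on the processing. The other 93 genes rest on 1 spot per array for the probe used.

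Complex IV was the most varied, with relative log2 ratios of its 18 measured genes from -0.39 to 0.99 and a median of -0.17, and with no scaling the median log2 ratio was -0.03. Several of its subunits exist as a widely expressed form and a form restricted to some tissues. Ndufa4l2, a paralogue known to be induced by low oxygen, was counted here as the restricted form beside Ndufa4. The 12 widely expressed genes had a median of -0.24, with 11 below 0 and 4 lower by over 0.322. The 6 measured restricted forms had a median of 0.37, with 1 below 0, 3 higher by over 0.322 and 1 lower by over 0.322. Over all genes, 20.4% were higher and 10.5% lower past this limit. By signal, 1 of the 6 was in the top 25% of measured genes, whereas all 12 widely expressed genes were.

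Among the widely expressed genes, Ndufa4, a small subunit needed for full activity of the complex, was the lowest, with 14820 units with agonists and 17502 with antagonists, or -0.39. Cox7a2l, a protein of this family that joins complexes III and IV into supercomplexes, had 61811 and 72805 units, or -0.38. Cox7a2 had 26184 and 30010 units, or -0.34. Each of these was lower in signal with agonists. Cox6a1, the brightest gene of the complex, had 126030 and 143350 units, or -0.33. Cox8a had 72676 and 77273 units, or -0.23. At the other end, Cox7b had 35015 and 33136 units, or -0.066. Cox6b1 had 3765 and 3606 units, or -0.084, and turned to 0.029 under normexp. Cox4i1, the main regulatory subunit of the complex, had 55197 and 49136 units, or 0.022.

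Ndufa4l2 had the highest relative log2 ratio of the 92 measured genes. It is a paralogue of Ndufa4 known to be induced by low oxygen. Its signal was 4753 units with agonists and 2157 with antagonists, a log2 ratio of 0.90 and a relative log2 ratio of 0.99, with a range of 0.95 to 1.04 over the alternative settings. Ndufa4 moved the opposite way, and the difference between the log2 ratios of the paralogues was 1.38, or 2.60-fold, with a software error of 0.29.

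Cox7a1, the form known from heart and skeletal muscle, had 1132 units with agonists and 587 with antagonists, or 0.80. Its log2 ratio was higher than that of Cox7a2, whose promoter is shown above beside its own, by 1.14 or 2.21-fold, with an error of 0.29 and a range of 1.01 to 1.14 over 11 settings. Cox4i2, the form known from lung, had 1258 and 787 units, or 0.53, and exceeded Cox4i1 by 0.51 (error 0.29, range 0.33 to 0.51 over 11 settings). All 3 restricted forms thus differed from their partners by more than the software error.

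The remaining restricted forms differed less. Cox6a2, known from heart and skeletal muscle, had 474 and 389 units, or 0.14, and exceeded Cox6a1 by 0.47 (error 0.29, range 0.31 to 0.47). Cox6b2, known from testis, had 1088 and 850 units, or 0.21, and exceeded Cox6b1 by 0.29, which was about the size of its error of 0.29. Cox8b, known from muscle and brown fat, went against this direction. It had 115 units with agonists and 132 with antagonists, or -0.34, and lay 0.11 below Cox8a (log2 ratios differing by -0.11, error 0.30). The higher value of the restricted form was therefore seen in 5 of the 6 measured pairs.

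**Figure D4:**
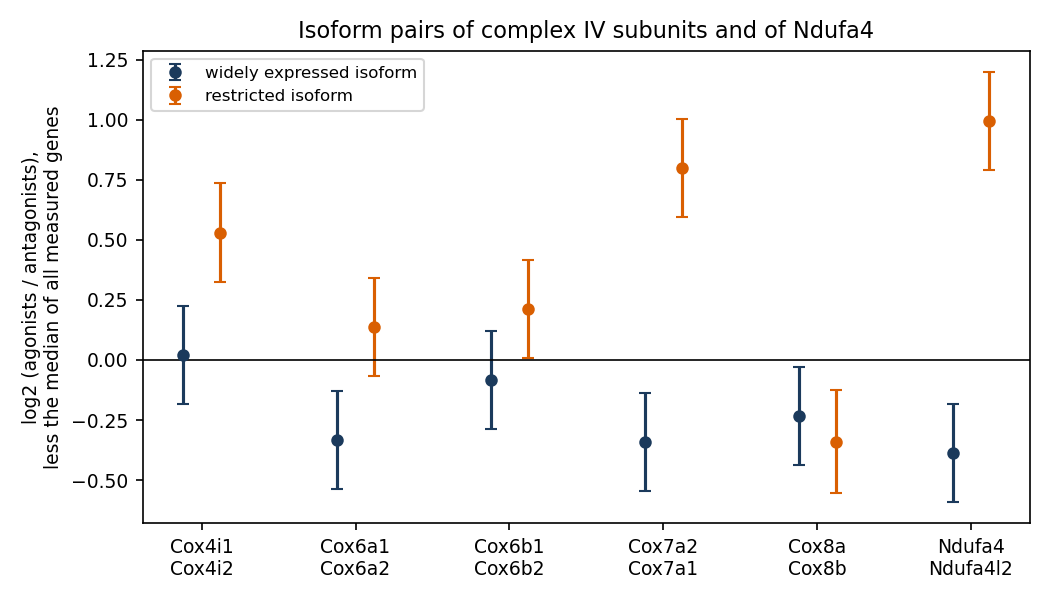
Relative log2 ratio (y axis) of the widely expressed form (blue) and the restricted form (orange) of each of 6 pairs of complex IV genes (x axis); each point is 1 gene on 1 array per group and bars are plus and minus the software error. The restricted form lies above its partner in 5 pairs, most of all for Ndufa4l2 and Cox7a1, and below it for Cox8b.

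Markers of other cell types moved between the arrays as well, and their part in the values of the restricted forms was not tested. Summed signals here and in the next paragraph were not scaled between the arrays. Without scaling the median log2 ratio of all genes was 0.15. All 5 smooth muscle markers measured on both arrays were higher with agonists by over 0.322 (median 0.91), where 20.4% of all genes were. The summed signal of the 6 markers was 25843 units against 13265. Of 5 endothelial markers measured on both arrays, 4 were higher by over 0.322 (median 0.58), with summed signals of 40749 and 30846 over 6 markers. All 7 surface epithelium markers were higher (median 1.09), with 46531 and 25347 units. All 5 macrophage markers measured lay above 0 (median 0.86), with 7649 and 5154 units. Of the defining markers of striated muscle, Ckm, Myh1, Myh4 and Tnnt3 were not measured on both arrays, whereas Acta1 was at 0.54 and Mb at 0.37. Of 4 brown fat markers, Ucp1 and Adipoq were not well above background on either array. Fabp4, a lipid-binding protein of fat cells, had 739 units with agonists and 44.2 with antagonists, or 3.92, and Cidea had 43.2 and 66.9 units, or -0.78. The summed signal of the 4 was 794 units with agonists and 129 with antagonists.

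Markers of the follicle itself moved less evenly. Of 10 granulosa markers, 8 lay below 0 (median -0.37), and their summed signal was 77079 units with agonists and 92143 with antagonists. Of 10 oocyte markers, 9 lay above 0 (median 0.15), with 165360 and 144040 units, of which Gdf9 alone gave 95396 and 85421. Of 5 theca markers measured, 3 lay below 0 (median -0.30), with a summed signal over the list of 57651 and 48297 units. Of that sum, Hsd3b1 alone gave 40513 and 29721 units. In RNA of whole ovary, fewer cells of a type and less RNA per cell cannot be told apart.

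Complex V had a median of -0.09 over 17 genes, 16 of them below 0, whereas with no scaling the median log2 ratio was 0.06. This median moved with the processing, to -0.025 after loess correction and to -0.14 with the mean over all detected probes of a gene. Atp5a1, the alpha subunit of the catalytic F1 head, was the lowest of the 92 measured genes, with 44730 units with agonists and 56445 with antagonists, or -0.48, which is 1.40-fold lower. Atp5b, the beta subunit that holds the catalytic sites, had 76946 and 84839 units, or -0.29. The other 3 genes of the F1 head, Atp5c1 at -0.09, Atp5e at -0.046 and Atp5d at -0.029, lay close to the median of all genes. The catalytic pair lay lower than the other genes of the same head. The distance from them exceeded 0.29, the software error of a difference between 2 genes, for Atp5a1 and not for Atp5b. Atp5b moved to -0.17 after quantile normalization.

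The proton-driven c ring of complex V is made of 1 protein encoded by 3 genes. Atp5g1 had 38890 and 37229 units, or -0.083. Atp5g2, the brightest gene of the complex, had 85999 and 82547 units, or -0.087, and was at 0.012 after quantile normalization. Atp5g3 had 71627 and 71311 units, or -0.14. The genes differed from each other by less than the software error, with Atp5g1 above Atp5g3 by 0.057 and Atp5g2 above it by 0.053. The 9 genes of the outer stalk and membrane part had a median of -0.14, from Atp5k at -0.23 to Atp5pb, with 14293 and 12852 units, at 0.0073.

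Of the 94 genes, 23 had more than 1 detected probe, and the probes of a gene differed by a median of 0.06. In 13 of the 23 they lay within the spread between spots. The largest range was 0.40, for Ndufb11, a membrane subunit of complex I. Its bright probe read 52268 units with agonists and 53550 with antagonists, a log2 ratio of -0.28, and its dim probe read 186 and 144 units, a log2 ratio of 0.13. For Cox7c of complex IV, probes with 28644 and 30889 units and with 19056 and 20178 units gave log2 ratios of -0.35 and -0.32, and a dim probe with 216 and 177 units gave 0.04. In both genes the direction was taken from the brightest probe and was the opposite in the dim one.

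Genes with and without the motifs shown earlier had similar medians. The 34 genes with at least 1 motif had a median relative log2 ratio of -0.15, the 41 measured genes with a promoter and no motif had -0.18, and the 17 measured genes with no promoter in the table had -0.16. The highest values were 0.05 with a motif, 0.86 without one and 0.99 with no promoter in the table. Of the 4 genes higher by over 0.322, Ndufab1 and Cox7a1 had a promoter without a motif. The others, Ndufa4l2 and Cox4i2, had no promoter in the table, so whether they hold a motif is unknown. A link between motifs and the ratio was not tested. Of the genes printed for a motif, Ndufa11 was at -0.18, Uqcr11 at -0.23 and Atp5j at -0.08, and Sdhd and Cox6a1 are given above. A list of 18 regulators of respiratory gene expression, which holds factors for nuclear promoters and also factors that act on mitochondrial DNA or its transcripts, such as Tfam and Polg, had a median of -0.07. Nrf1 had 1341 units with agonists and 1550 with antagonists, or -0.35. Ppargc1a, a coactivator that raises mitochondrial gene expression, had 152 and 89.6 units, or 0.62. Esrrb, of the ERR family, had 1440 and 925 units, or 0.49. The other genes of that family were Esrra, brighter at 2643 and 2499 units, at -0.065, and Esrrg, dim at 41.5 and 32.4 units, at 0.21. Of the other factors whose letters were searched, Yy1 was at -0.062, and of the GABP genes Gabpa was at -0.072, Gabpb1 at -0.18 and Gabpb2 at 0.10. Tfb1m was the lowest of the list, at -0.36. Of the 18 genes, 2 (11.1%) were higher by over 0.322 and 2 (11.1%) lower by over 0.322, against 20.4% and 10.5% of all genes.

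Other nuclear genes for mitochondria lay on the same side as the chain. The 34 measured assembly factors for the complexes outside the symbol rule had a median of -0.12, with 27 below 0 and 6 (17.6%) lower by over 0.322. Over all genes, 10.5% were lower and 20.4% higher past this limit. The 18 genes for import of proteins into mitochondria had a median of -0.22 with 17 below 0. The lowest of them was Timm50, a receptor of the inner membrane translocase, at 1346 and 1775 units, or -0.55. The 77 genes of the mitochondrial ribosome, which makes the subunits encoded in mitochondrial DNA, had a median of -0.15 with 68 below 0. Past 0.322, 10 (13.0%) were lower, a share near that of all genes, and 1 (1.30%) was higher. The 14 measured genes for electron carriers and quinone synthesis had a median of -0.13, and Cycs, the cytochrome c that links complexes III and IV, had 16921 and 19017 units, or -0.31.

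Energy metabolism outside the chain gave other values. The 17 genes of the tricarboxylic acid cycle had a median of -0.05, nearer to 0 than the chain, though 14 lay below 0. The 18 glycolytic genes had a median of 0.15, with 13 above 0 and 1 (5.56%) higher by over 0.322, against 20.4% of all genes. The cytosolic ribosome, an abundant complex with no role in respiration, had a median of -0.09 over 79 genes, with 69 below 0 and none past 0.322. Its share below 0 was 87.3%, as high as that of the respiratory chain genes. The 13 subunits encoded in mitochondrial DNA were not analysed here.

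**Figure D5:**
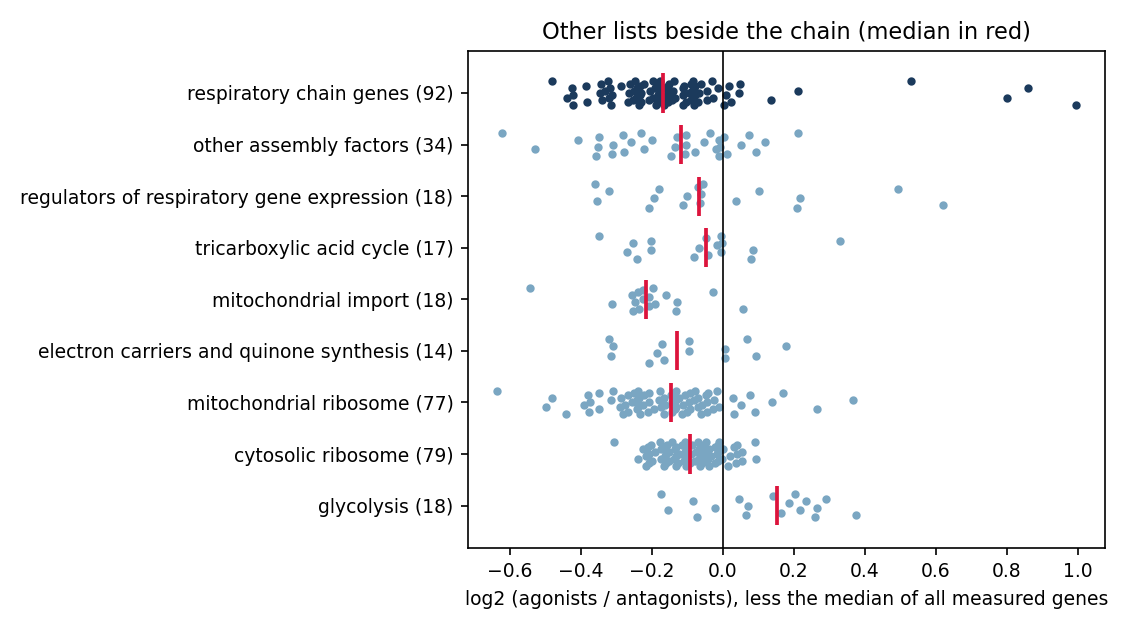
Relative log2 ratio (x axis) of the respiratory chain genes and of other gene lists (y axis, number of measured genes in brackets); each point is 1 gene on 1 array per group and red bars are medians. Lists for mitochondria and ribosomes have medians below 0, and glycolysis has a median of 0.15.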

How the data were processed

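Total RNA of the cultured ovaries was labelled with Cy3 and hybridised to 1 array per group, both on 1 slide. The authors deposited spot intensities from Feature Extraction 10.10.1.1, background-corrected on a linear scale and not scaled between arrays, and a table of intensities that was the same signal multiplied by 1 factor per array (deviating by at most 4.97e-10 of its value; column medians 129 for agonists and 115 for antagonists). The direction of every ratio follows from the sample labels.

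Here the log2 processed signal was reduced by its array's 75th percentile. Outlier spots were removed, spots of a probe were averaged, and a probe counted as well above background if over 50% of its spots did. Of the 59305 non-control spots, 38765 with agonists and 36549 with antagonists were well above background and 0 were saturated. Accessions gave 27230 probes a symbol through RefSeq (GRCm38.p6). A gene was its brightest probe. Array coordinates (mm9) were not used.

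The genes and lists were chosen with earlier results of these data known. Genes are named by rule: the extremes and the brightest of each complex, conserved core subunits, isoform sets, genes past 2-fold and genes measured on 1 array only. 1 gene that this rule names is not reported here. Other genes (Ndufc1, Ndufb10, Ndufa3, Ndufa5, Uqcrq, genes of other lists, and those with divergent probes or printed promoters) were chosen after their values were seen. The number of arrays limits the precision, and no p-value is given. Alternatives changed the scaling, background correction (normexp offset 50), spot and probe summaries, filters, members and the fold threshold. Python 3.11.15, numpy 2.4.6, pandas 2.3.3, R 4.3.3 and limma 3.58.1 were used, and the calculation was tested on simulated data.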

Additional observations from a re-analysis of the deposited data

How the results depend on the processing

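The medians of all 5 complexes stayed below 0 under every alternative that was run. Alternatives that only multiplied an array by a factor could not move these relative values. They include no scaling, spike-in scaling and the authors' table. Alternatives for averaging the spots of a probe or for keeping outlier spots could barely move genes with 1 spot. Quantile normalization, loess, normexp and the changes of probes, filters or members could move them. The median of all the genes ranged from -0.18 to -0.10, that of complex I from -0.17 to -0.091, of complex II from -0.15 to -0.065, of complex III from -0.21 to -0.13, of complex IV from -0.24 to -0.072 and of complex V from -0.14 to -0.025. Under normexp background correction the median was -0.091 for complex I and -0.090 for complex IV, and after quantile normalization it was -0.065 for complex II and -0.072 for complex IV. The count of genes past the threshold and higher went from 4 to 0 at 2-fold and to 1 without the restricted isoforms. The count past the threshold and lower went from 13 to 0 at 2-fold, to 7 with loess correction, to 7 when probes dimmer than the 75th percentile were dropped, and to 6 after quantile normalization. Of 478 values of single named genes, 437 moved by less than the spread of 0.07 between spots, 39 moved by more, and 2 whose main value was farther than that from 0 reversed: Atp5g2 to 0.012 after quantile normalization and Cox6b1 to 0.029 under normexp. The cause was not tested. The 437 include the values under alternatives that only multiplied an array by a factor, which could not move. No paired analysis was possible because each group has 1 array. Leaving out an array was not possible for the same reason. With 1 array per group, differences within the software error of 0.20 were treated as unresolved for single genes. That error was nearly the same for every gene with 1 spot.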
